A study of Mus musculus with 1677 samples.

Results

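Liver was examined at the moment restricted feeding begins: TRF (time-restricted feeding) libraries taken at ZT14 and ZT16, 1 h and 3 h after food was given at ZT13, were set against TRF libraries taken at ZT10 and ZT12, at the end of the daily fast. ZT counts hours from lights on under alternating light and dark phases of 12 h. The choice of libraries used only the tissue, the clock time and the feeding group, and it took 8 TRF libraries (2 at each of 4 clock times), with 8 ALF (ad libitum feeding) libraries of the same clock times as the time-of-day control, out of 48 liver libraries and 1035 libraries of the series. All groups were wild-type C57BL/6J mice, bought at 10 weeks of age, kept on chow for 2 weeks and then given a Western diet (45% fat, 17% sucrose) for 7 weeks. TRF mice had this food for 9 h a day, between ZT13 and ZT22, and ALF mice had it at all hours, so that both groups ate the same diet and differed in when it was present. ALF mice could also eat at ZT14 and ZT16, which lie in the dark phase. In a change shared by both groups, feeding, light phase and clock therefore cannot be told apart. The series profiled 22 tissues by stranded mRNA sequencing to compare these feeding schedules over the day.

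The liver switches at the end of a fast from releasing glucose and burning fatty acids to storing glucose and making fat, as insulin rises and glucagon falls. Food also brings amino acids, a demand for new secreted protein, and a rise in body temperature, and each of these has its own gene programme: ribosome biogenesis, the chaperones of the endoplasmic reticulum (ER), and the cytosolic heat shock proteins under heat shock factors. The hepatic clock is a loop in which the Bmal1 and Clock proteins drive the Per, Cry and Rev-erb genes that repress them, and meal time is known to set its phase in liver.

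The deposited values are estimated counts per gene, with totals per library of 10836297.5 to 28463324 in TRF livers at ZT14 and ZT16 and 9151007.5 to 44527855 at ZT10 and ZT12. In ALF livers they were 10294128 to 14472454.5 at ZT14 and ZT16 and 9489476 to 14747422.5 at ZT10 and ZT12. Levels are given as CPM (after TMM scaling over the 16 libraries), which compare libraries for 1 gene and not genes of different length. Sums over cell type markers are instead CPM of the library totals, without this scaling. The labels do not say whether the 2 replicates of a clock time were separate animals, so p-values measure only the spread between libraries. Of 14 hepatocyte markers 13 were among the deposited gene names, and all 13 passed the filter on low counts. They summed to between 115100 and 146000 CPM in TRF livers at ZT14 and ZT16 and between 109900 and 137500 CPM at ZT10 and ZT12. In bulk tissue, fewer cells of a type and less RNA per cell cannot be told apart. Pericentral hepatocyte markers summed to between 9748 and 13880 CPM in TRF livers at ZT14 and ZT16 and between 14540 and 15730 CPM at ZT10 and ZT12, without overlap, although 0 of 11 members passed the test alone. Their median log2 fold change was only -0.03 (0.14 at ZT14 and -0.07 at ZT16). The most abundant members weigh most in a sum, so the list as a whole cannot be said to fall. In ALF livers the pericentral sum was 10510 to 11480 CPM at ZT14 and ZT16 and 11740 to 15770 CPM at ZT10 and ZT12. That gap was narrow, and the TMM factor of the library at 11740 CPM, ALF ZT10 replicate 2, was 1.074. The factor was 1.018 in ALF ZT14 replicate 1 and 0.9956 in ALF ZT16 replicate 1, so the ALF windows cannot be called apart after scaling. Of the erythroid markers 1 of 6 was lower (Hbb-bt, a beta globin) and 3 of 6 were lower at ZT16 alone, and the list summed to 354.8 to 659.6 CPM in TRF livers at ZT14 and ZT16 and 491.2 to 589.4 CPM at ZT10 and ZT12. Of the sinusoidal endothelium markers, 3 of 10 were higher in TRF livers at ZT14 and ZT16, and the list summed to between 376.7 and 445.3 CPM there and between 326.3 and 387.3 CPM at ZT10 and ZT12. Among all genes tested 6.28% were higher and 6.29% lower, and 5.29% were lower at ZT16 alone. In TRF ZT12 replicate 2, pancreatic acinar markers summed to 580.3 CPM, against at most 62.34 CPM in the other 3 libraries of its window and at most 40.68 CPM at ZT14 and ZT16, and the digestive enzyme gene Prss2 reached 56.0 CPM. All 4 TRF libraries of ZT14 and ZT16 were each run once on the sequencer, as was 1 of the 4 TRF libraries of ZT10 and ZT12, while the other 3 were run 2 times and every ALF library had 2 or 3 runs.

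At feeding onset 806 genes were higher (6.28% of 12839 tested) and 808 were lower (6.29%) in TRF livers at ZT14 and ZT16 than at ZT10 and ZT12, at an adjusted p under 0.05. Of these, 213 rose and 196 fell by at least 1 on the log2 scale. An unadjusted p under 0.05 was found for 3476 genes. Counted without any test, all 4 libraries of ZT14 and ZT16 lay above all 4 of ZT10 and ZT12 for 1049 genes (8.17%) and below them for 1163 genes (9.06%). Largest rises and falls were ranked among called genes of at least 5 CPM whose windows did not overlap, so that separation in these genes is not a further result. The largest rises were those of Hspa1b, Angptl8, Hsph1, Creld2, Hsp90aa1, Hspb1, Bag3, Arntl, Noct, P4ha1, Ddit3 and Acmsd, of which 5 are heat shock or co-chaperone genes. The call of Noct was lost without 4 of the 16 libraries in turn (TRF ZT12 replicate 1, TRF ZT12 replicate 2, TRF ZT14 replicate 2 and TRF ZT16 replicate 1; largest adjusted p = 0.0781). By the same rule the largest falls were those of Clec2h, 4931408D14Rik, Bmf, Gbp11, Rnf186, Cirbp, Tcp11l2, Serpina7, Trib3, Rnf125, Dbp and Syt1. The call of Serpina7 was lost without TRF ZT10 replicate 1, TRF ZT14 replicate 2 or TRF ZT16 replicate 1 (largest adjusted p = 0.0805). The count of 1614 genes fell to 976 without TRF ZT10 replicate 1, 990 without TRF ZT10 replicate 2, 886 without TRF ZT12 replicate 1, 883 without TRF ZT12 replicate 2, 693 without TRF ZT14 replicate 2, 994 without TRF ZT16 replicate 1 and 1024 without TRF ZT16 replicate 2. With the number of runs (once or more often) as a term over all 48 liver libraries it was 803, and among libraries run once, which leave 1 library of ZT10, it was 161.

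**Figure D1:**
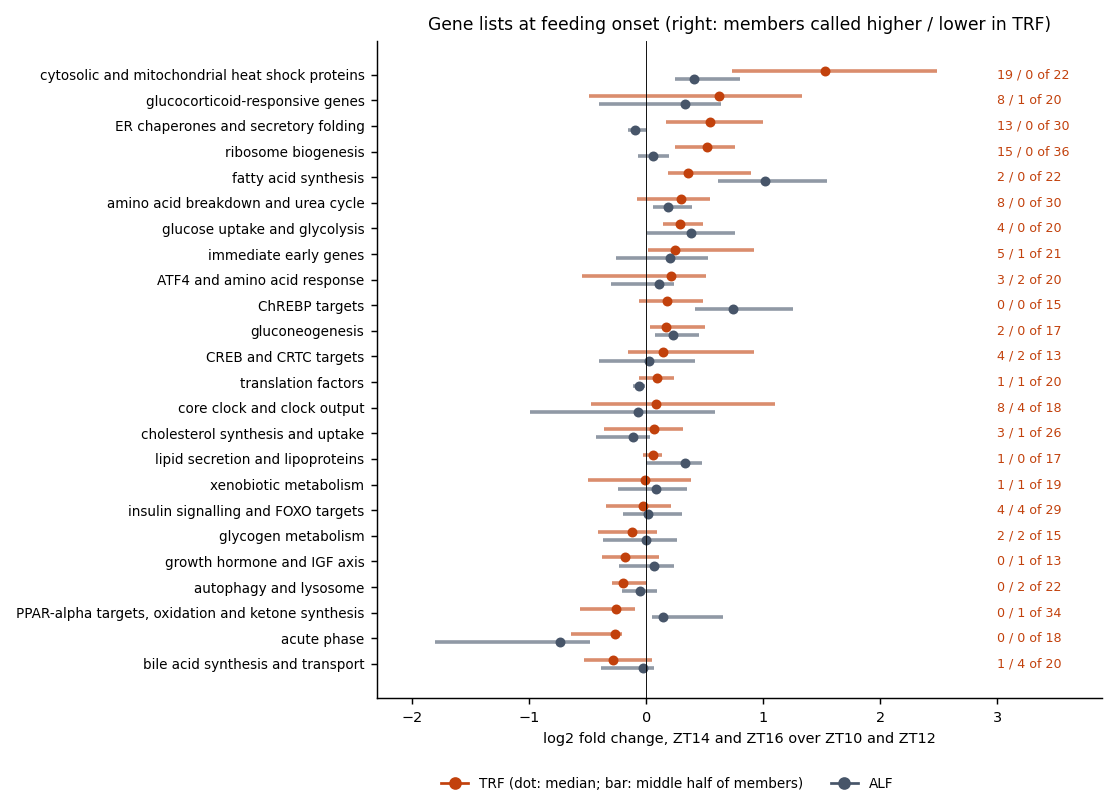
Median log2 fold change (ZT14 and ZT16 over ZT10 and ZT12, x axis) of the members of each pathway list in TRF livers (orange) and ALF livers (blue-grey), with bars between the lower and upper quartiles of the members and the TRF counts of members called higher and lower at the right. The heat shock list has the highest TRF median, 1.53, with 19 of 22 members called higher and 0 lower.

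The cytosolic and mitochondrial heat shock genes rose in nearly all members. Of 22 members tested, 19 rose and 0 fell, beside 6.28% higher and 6.29% lower among all genes. Their median log2 fold change was 1.53 against a median of -0.01 over all 12839 genes. The members that did not pass were Hspa4 (0.37), Hspa9 (0.06) and Hsf2 (-0.16, log2). Hsph1 encodes an HSP110 chaperone that exchanges nucleotide on HSP70. It had 221 and 387 CPM at ZT14 and 257 and 266 CPM at ZT16, against 19.1 and 25.7 CPM at ZT10 and 31.4 and 25.6 CPM at ZT12. Hsp90aa1 encodes the stress-inducible HSP90. It had 212 and 357 CPM at ZT14 and 319 and 381 CPM at ZT16, against 47.8 and 43.1 CPM at ZT10 and 49.3 and 42.2 CPM at ZT12. Hspb1 encodes a small heat shock protein. It had 32.8 and 23.6 CPM at ZT14 and 30 and 18.9 CPM at ZT16, against 4.1 and 3.01 CPM at ZT10 and 5.26 and 3.53 CPM at ZT12. Every library of ZT14 and ZT16 lay above every library of ZT10 and ZT12 for each gene, as the ranking of largest rises required. The 4 fasted libraries of Hsp90aa1 differed little from one another. The log2 fold changes came to 3.47 ± 0.27 for Hsph1 (± SE, adjusted p = 1.51e-05), 2.79 ± 0.21 for Hsp90aa1 (adjusted p = 8.52e-06) and 2.74 ± 0.23 for Hspb1 (adjusted p = 1.4e-05).

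Hspa1b, an inducible HSP70, had 126 and 105 CPM at ZT14 and 26.4 and 10.3 CPM at ZT16, against 2.23 and 1.09 CPM at ZT10 and 1.89 and 1.1 CPM at ZT12. Bag3 encodes an HSP70 co-chaperone. It had 139.8 and 212 CPM at ZT14 and 78.1 and 62.3 CPM at ZT16, against 20.4 and 21.5 CPM at ZT10 and 12.8 and 17.4 CPM at ZT12. Both were highest in the ZT14 libraries and lower, but still above the fast, at ZT16, with log2 fold changes over both times of 4.92 ± 0.51 (adjusted p = 0.000501) and 2.64 ± 0.25 (adjusted p = 5.06e-05). Hspa1a and Hspa1b are near-identical copies whose reads the counting could split, so the level of either one alone is uncertain. The constitutive chaperones rose as well. Hspa8 encodes the cognate HSP70. It had 834 and 1102 CPM at ZT14 and 1445 and 1337 CPM at ZT16, against 229.6 and 258 CPM at ZT10 and 329.8 and 345 CPM at ZT12. That is a log2 fold change of 2.02 ± 0.18 (adjusted p = 1.51e-05). Hsp90ab1 encodes the constitutive HSP90. It had 1657 and 2110 CPM at ZT14 and 2187 and 2199 CPM at ZT16, against 813 and 844 CPM at ZT10 and 884 and 809 CPM at ZT12. On the log2 scale the change was 1.28 ± 0.14 (adjusted p = 5.85e-05). The co-chaperones Stip1, which links HSP70 to HSP90, and Dnaja1, an HSP40, rose on the log2 scale by 1.75 ± 0.14 (adjusted p = 1.16e-05) and 1.41 ± 0.13 (adjusted p = 1.64e-05), with no overlap between the windows. Leaving out any 1 of the 16 libraries kept between 16 and 19 members called, the term for runs 18, and the libraries run once 15. The feeding onset calls of Hsph1, Hsp90aa1, Hspb1, Hspa1b, Bag3, Hspa8, Hsp90ab1, Stip1 and Dnaja1 held under every alternative run.

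**Figure D2:**
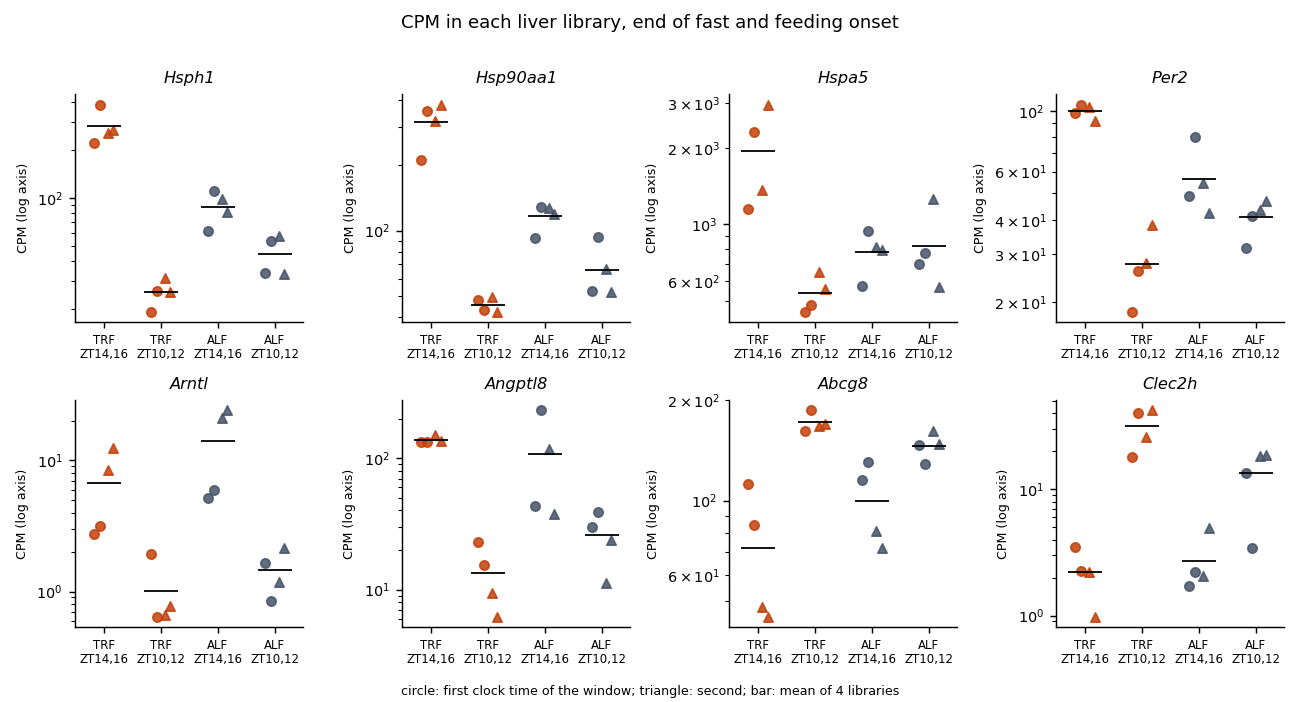
CPM of 8 genes (log axis) in each of the 16 libraries, by feeding group and window, with circles for the first clock time of a window, triangles for the second and bars at the mean of 4 libraries. Hsph1, Hsp90aa1, Hspa5, Per2, Arntl and Angptl8 lie higher, and Abcg8 and Clec2h lower, in all 4 TRF libraries of ZT14 and ZT16 than in all 4 of ZT10 and ZT12.

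Heat shock factors bind inverted repeats of the unit GAA, and the 250 bases before each start site (RefSeq, GRCm38.p6) were searched on both strands for 2 adjoining units, GAANNTTC or TTCNNGAA. Of 17 list members with a window, called or not, 9 held at least 1 match (52.9%), as did 1218 of all 9898 tested genes with a window (12.3%). The share of the list describes the list and not the change at feeding. Matches were found in 12.7% of the 632 called genes that rose and 11.2% of the 625 that fell, both near the share of all genes. The stricter pattern of 3 adjoining units in alternating orientation at the same spacing was in 2 of the 17 and in 47 of all 9898 windows. These 2 members, Hspd1 and Hspe1, hold it in 1 shared stretch, so it is the same sequence counted for both. Their log2 fold changes were 0.49 and 0.64, and each call was lost without 5 of the 16 libraries in turn. The matches of 6 of the 9 members are shown to let their units be compared (Hspa1a holds the same bases as Hspa1b, and Hspd1 and Hspe1 share 1 stretch on opposite strands), each with 10 bases to either side, read 5′ to 3′ on the strand of the gene, with the 2 units in capitals.
Hspa1b (chr17:34959325-34959352): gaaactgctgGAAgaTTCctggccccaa
Hsph1 (chr5:149636352-149636379): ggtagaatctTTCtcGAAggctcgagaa
Hspb1 (chr5:135887792-135887819): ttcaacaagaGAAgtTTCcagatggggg
Hspb1 (chr5:135887812-135887839): gatgggggcaGAAccTTCctggccccgc
Dnaja1 (chr4:40722334-40722361): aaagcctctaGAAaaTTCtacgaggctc
Dnaja4 (chr9:54699459-54699486): gaacctccgcGAAcgTTCtgggcctatg
Dnaja4 (chr9:54699497-54699524): cctcctggcgGAAccTTCcgccggcgcc
Fkbp4 (chr6:128438790-128438817): cgcttctctaGAAagTTCtccgctcccg
In the window of Hspb1 the pair of matches lay 117 and 97 bases before the start site, both on the same strand, and the whole 250 bases are printed to show them in place. Capitals mark the matched units.
Hspb1 (chr5:135887669-135887918, plus strand): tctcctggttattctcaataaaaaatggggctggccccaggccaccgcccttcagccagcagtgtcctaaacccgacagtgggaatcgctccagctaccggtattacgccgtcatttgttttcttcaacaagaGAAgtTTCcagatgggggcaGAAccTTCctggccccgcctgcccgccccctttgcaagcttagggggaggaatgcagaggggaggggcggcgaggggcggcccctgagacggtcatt
A match is a description of these letters and not of bound protein.

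The ER chaperones and folding factors of the secretory path rose in 13 of 30 members and fell in 0, beside 6.28% higher and 6.29% lower among all genes. Their median log2 fold change was 0.54 against -0.01 over all genes. Hspa5 (BiP) encodes the main HSP70 of the ER. It had 1148 and 2313 CPM at ZT14 and 1370 and 2959 CPM at ZT16, against 453 and 482 CPM at ZT10 and 650.4 and 559 CPM at ZT12. Creld2 encodes an ER stress-induced protein with disulfide isomerase activity. It had 75.5 and 221 CPM at ZT14 and 114 and 322 CPM at ZT16, against 13 and 15.5 CPM at ZT10 and 29.4 and 17.4 CPM at ZT12. Syvn1 encodes the ubiquitin ligase of ER-associated degradation. It had 112 and 226 CPM at ZT14 and 186 and 314 CPM at ZT16, against 49.8 and 48 CPM at ZT10 and 53.2 and 40 CPM at ZT12. The windows did not overlap for any of the 3 genes, and the library called replicate 2 was above replicate 1 at both ZT14 and ZT16. Log2 changes between the windows were 1.86 ± 0.31 for Hspa5 (adjusted p = 0.00326), 3.29 ± 0.61 for Creld2 (adjusted p = 0.0112) and 2.11 ± 0.40 for Syvn1 (adjusted p = 0.00912). Herpud1 works with Syvn1. It had 785 and 977 CPM at ZT14 and 337 and 558 CPM at ZT16, against 259 and 359 CPM at ZT10 and 358 and 439.7 CPM at ZT12. The fold change was 0.84 ± 0.17 on the log2 scale (adjusted p = 0.00537), with the ZT14 libraries above the fast and the ZT16 libraries overlapping it. Xbp1, the transcription factor that drives many of these genes, did not pass (log2 fold change -0.28), nor did Derl3 (-0.75). The count of 13 was 6 without TRF ZT10 replicate 1, 7 without TRF ZT10 replicate 2, 5 without TRF ZT12 replicate 2, 4 without TRF ZT14 replicate 2 and 5 without TRF ZT16 replicate 2. It was 1 without ZT10, 2 without ZT16 and 7 without ZT12. It was 8 with the term for runs and 0 among libraries run once, and the call of Creld2 was lost without TRF ZT10 replicate 1 and without TRF ZT12 replicate 2 (largest adjusted p = 0.0541).

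The ER stress element, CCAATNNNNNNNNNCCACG, is the site of the ATF6 and XBP1 branches of the unfolded protein response with NF-Y. It was in the 250 upstream bases of 9 of 22 list members with a window (40.9%) and of 17 of all 9898 tested genes (0.172%). Among all called genes the element was in 5 of 632 that rose (0.791%) and 0 of 625 that fell. The share of the list counts its members whether called or not, so it describes the list and not the change at feeding. The 10 matches of these 9 members are printed, each read 5′ to 3′ in the direction of the element, with the fixed letters in capitals, to show the bases of the spacer, whose length the search fixed. The strand is that of the match relative to the gene.
Creld2 (chr15:88819520-88819538, opposite strand): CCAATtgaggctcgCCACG
Syvn1 (chr19:6046532-6046550, same strand): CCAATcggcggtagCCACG
Hspa5 (chr2:34772025-34772043, same strand): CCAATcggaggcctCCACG
Hsp90b1 (chr10:86705638-86705656, same strand): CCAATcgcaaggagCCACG
Hsp90b1 (chr10:86705533-86705551, opposite strand): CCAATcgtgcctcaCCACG
Calr (chr8:84847075-84847093, opposite strand): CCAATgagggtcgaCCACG
Dnajc3 (chr14:118937827-118937845, same strand): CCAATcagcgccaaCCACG
Canx (chr11:50325800-50325818, same strand): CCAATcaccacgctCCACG
Pdia6 (chr12:17266491-17266509, same strand): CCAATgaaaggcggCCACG
Derl3 (chr10:75893242-75893260, opposite strand): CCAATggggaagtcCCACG
Of these 9 genes, Creld2, Syvn1, Hspa5 and Hsp90b1 passed the test and rose, and Calr, Dnajc3, Canx, Pdia6 and Derl3 did not pass, with log2 fold changes between -0.75 and 0.55. The call of Hsp90b1 was lost without TRF ZT10 replicate 1, TRF ZT10 replicate 2, TRF ZT12 replicate 2, TRF ZT14 replicate 2 or TRF ZT16 replicate 2 (largest adjusted p = 0.0848). The largest rise of the list was that of Creld2, and its 250 bases are shown with the match in capitals, here on the gene's strand, where it reads as the reverse complement.
Creld2 (chr15:88819396-88819645, plus strand): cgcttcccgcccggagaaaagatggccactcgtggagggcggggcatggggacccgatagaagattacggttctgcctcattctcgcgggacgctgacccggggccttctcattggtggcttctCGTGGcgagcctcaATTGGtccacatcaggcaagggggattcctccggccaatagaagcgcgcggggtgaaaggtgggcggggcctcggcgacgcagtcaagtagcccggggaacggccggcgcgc

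Genes of ribosome biogenesis formed a further group, with 15 of 36 members higher and 0 lower, beside 6.28% higher and 6.29% lower among all genes. The list had a median log2 fold change of 0.52. Nop58 encodes a core protein of box C/D small nucleolar RNPs. It had 28.6 and 48.2 CPM at ZT14 and 18.7 and 23 CPM at ZT16, against 14.1 and 18.1 CPM at ZT10 and 12.2 and 12.4 CPM at ZT12. Nolc1 encodes a nucleolar phosphoprotein. It had 62.1 and 90.1 CPM at ZT14 and 53.6 and 67.5 CPM at ZT16, against 25.2 and 35.5 CPM at ZT10 and 20.9 and 28.7 CPM at ZT12. Nop2 encodes a methyltransferase of ribosomal RNA. It had 34.3 and 51.5 CPM at ZT14 and 27.3 and 31.8 CPM at ZT16, against 16.7 and 22.3 CPM at ZT10 and 16.9 and 15 CPM at ZT12. In all 3 genes TRF ZT14 replicate 2 was the highest library, and the windows did not overlap. Fitted log2 changes were 1.01 ± 0.18 for Nop58 (adjusted p = 0.00251), 1.31 ± 0.24 for Nolc1 (adjusted p = 0.00418) and 1.01 ± 0.17 for Nop2 (adjusted p = 0.00203). Polr1a, the largest subunit of RNA polymerase I, rose on the log2 scale by 0.75 ± 0.13 (adjusted p = 0.0025), with 45.1 and 48.1 CPM at ZT14 and 24.8 and 33.3 CPM at ZT16 against 18.1 to 25.6 CPM at ZT10 and ZT12. The abundant nucleolar genes Ncl (-0.03) and Npm1 (-0.15) did not pass. Of 20 translation factors, Eif1a was higher and Eif4b was lower, beside 6.28% higher and 6.29% lower among all genes. Eif4b helps unwind mRNA. It had 238 and 235 CPM at ZT14 and 146 and 168 CPM at ZT16, against 311 and 338 CPM at ZT10 and 338 and 333 CPM at ZT12. Between windows the difference was -0.78 ± 0.12 on the log2 scale (adjusted p = 0.000886). The count of 15 was 4 without ZT12, 9 without ZT10, 9 without ZT14 and 10 without ZT16. It was 9 with the term for runs and 0 among libraries run once.

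Genes of the insulin and glucose response moved in small numbers. Angptl8 encodes a hormone-like inhibitor of lipoprotein lipase that feeding induces. It had 132 and 133 CPM at ZT14 and 150.4 and 135 CPM at ZT16, against 23.1 and 15.3 CPM at ZT10 and 9.36 and 6.18 CPM at ZT12. Ppp1r3b targets protein phosphatase 1 to glycogen and favours its synthesis. It had 646 and 745 CPM at ZT14 and 426 and 735 CPM at ZT16, against 93.1 and 162 CPM at ZT10 and 82.4 and 207 CPM at ZT12. Both genes lay higher in every library of ZT14 and ZT16, and the 4 values of Angptl8 there were close together. Log2 fold changes were 3.49 ± 0.59 for Angptl8 (adjusted p = 0.00707) and 2.22 ± 0.44 for Ppp1r3b (adjusted p = 0.0118). G0s2, an inhibitor of the lipase ATGL, rose on the log2 scale by 2.04 ± 0.30 (adjusted p = 0.00179), with 103 to 184 CPM at ZT14 and ZT16 and 20.3 to 59.3 CPM at ZT10 and ZT12. By list, 4 of 20 genes of glucose uptake and glycolysis rose, among them Pfkfb1, Gapdh and Eno1, and 0 fell. Among all genes 6.28% were higher and 6.29% lower, beside which this count and those of the lists that follow stand. Of 29 genes of insulin signalling and FOXO targets, 4 rose (Irs1, Pik3r3, Ppp1r3b and Tsc22d3) and 4 fell (Irs2, Sesn1, Grb14 and Socs2). Of 15 genes of glycogen metabolism, Ppp1r3b and Ppp1r3c rose and Gyg and Phka2 fell. The call of Ppp1r3b was lost without TRF ZT10 replicate 1 (adjusted p = 0.0514).

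Lipogenic enzymes were variable. Of 22 genes of fatty acid synthesis, Mid1ip1, which promotes polymerisation of acetyl-CoA carboxylase, and Srebf1, the regulator SREBP-1, rose, and 0 fell, with a list median of 0.36 (log2). Mid1ip1 had 95.9 and 107 CPM at ZT14 and 64.6 and 115 CPM at ZT16, against 39.6 and 39.3 CPM at ZT10 and 24 and 31.2 CPM at ZT12. In log2 units this was 1.53 ± 0.21 (adjusted p = 0.000708). Fasn encodes the fatty acid synthase. It had 534 and 801 CPM at ZT14 and 587 and 1131 CPM at ZT16, against 212 and 328 CPM at ZT10 and 107 and 150.1 CPM at ZT12. Thrsp encodes a lipogenic nuclear protein. It had 1188 and 1502 CPM at ZT14 and 1260 and 1888 CPM at ZT16, against 104 and 421 CPM at ZT10 and 174 and 853 CPM at ZT12. Fasn and Thrsp lay higher in every library of ZT14 and ZT16, but their fasted libraries spread widely and neither passed (log2 fold changes 2.02 ± 0.58 and 1.99 ± 0.57, adjusted p = 0.0536 and 0.053). In ALF livers Fasn had 2728 and 1547 CPM at ZT14 and 2777 and 1484 CPM at ZT16, against 425 and 3350 CPM at ZT10 and 324 and 233 CPM at ZT12, so that its windows overlapped through ALF ZT10 replicate 2. No member of the 15 ChREBP targets passed in TRF livers, where their median log2 fold change was 0.18. The call of Srebf1 was lost without TRF ZT10 replicate 1, TRF ZT12 replicate 1, TRF ZT14 replicate 2 or TRF ZT16 replicate 2 (largest adjusted p = 0.0848).

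Amino acid breakdown and the urea cycle had 8 of 30 members higher, among them Tat, Cps1, Ass1, Asl, Aass, Cth and Ddc, and 0 lower, with a median log2 fold change of 0.29. Tat encodes the tyrosine aminotransferase. It had 1884 to 3863 CPM at ZT14 and ZT16, against 486 to 856 CPM at ZT10 and ZT12. Asl encodes the argininosuccinate lyase of the urea cycle. It had 707 and 669.5 CPM at ZT14 and 911 and 816 CPM at ZT16, against 252 and 320.1 CPM at ZT10 and 348 and 551 CPM at ZT12. Cps1 encodes its entry enzyme. It had 4528 and 6224 CPM at ZT14 and 5629 and 6992 CPM at ZT16, against 3528 and 3825 CPM at ZT10 and 2757 and 3269 CPM at ZT12. The windows did not overlap in any of the 3 genes, and the lowest library of Tat and Cps1 was TRF ZT12 replicate 1. The log2 fold changes came to 1.89 ± 0.33 for Tat (adjusted p = 0.00381), 1.10 ± 0.18 for Asl (adjusted p = 0.00132) and 0.81 ± 0.17 for Cps1 (adjusted p = 0.00603). Cps1 and Ass1 also stand among the hepatocyte and periportal markers, of which 2 of 13 and 2 of 11 tested rose. The count of 8 was 4 without TRF ZT10 replicate 1, 5 without TRF ZT10 replicate 2, and 4 without each of TRF ZT12 replicate 1, TRF ZT14 replicate 2 and TRF ZT16 replicate 1. It was 2 without ZT12, 2 without ZT16 and 5 without ZT10. It was 5 with the term for runs and 1 among libraries run once.

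Among 20 glucocorticoid-responsive genes 8 rose (Tsc22d3, Ddit4, Tat, Cdkn1a, Per1, Sgk1, Dusp1 and Fkbp5) and 1 fell (Klf9), with a median log2 fold change of 0.63. Tsc22d3 (GILZ) encodes a mediator of glucocorticoid action. It had 248 and 215 CPM at ZT14 and 212 and 215 CPM at ZT16, against 52.7 and 64.5 CPM at ZT10 and 53.7 and 90.8 CPM at ZT12. As a log2 ratio this was 1.77 ± 0.20 (adjusted p = 0.000133). Klf9 encodes a Krüppel-like factor also induced by glucocorticoids. It had 57 and 51.2 CPM at ZT14 and 34.7 and 48.5 CPM at ZT16, against 115 and 132 CPM at ZT10 and 116 and 83.3 CPM at ZT12. That is a log2 fold change of -1.23 ± 0.22 (adjusted p = 0.0032). These members of 1 list moved in opposite directions without overlap of their windows. Of the ATF4 and amino acid response list, 3 of 20 members rose and 2 fell. Ddit3 (CHOP) encodes the stress-induced transcription factor. It had 21.3 and 27.5 CPM at ZT14 and 13.6 and 14.2 CPM at ZT16, against 3.72 and 3.37 CPM at ZT10 and 4.84 and 2.65 CPM at ZT12. On the log2 scale the change was 2.33 ± 0.26 (adjusted p = 6.7e-05). Trib3 encodes a pseudokinase. It had 4.71 and 1.54 CPM at ZT14 and 3.42 and 1.91 CPM at ZT16, against 18.7 and 11.5 CPM at ZT10 and 7.64 and 6.63 CPM at ZT12. The fold change was -1.85 ± 0.34 on the log2 scale (adjusted p = 0.0033). Ddit3 and Trib3 are both known targets of ATF4 in mouse cells and here they moved in opposite directions, and Chac1, a further target that degrades glutathione, fell by 3.30 ± 0.47 on the log2 scale (adjusted p = 0.000708). The glucocorticoid count of 8 was 3 with the term for runs, 5 among libraries run once and 5 without ZT10, ZT12 or ZT16 in turn.

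Lists known for activity in fasting changed in few members. Of 34 PPAR-alpha targets and genes of oxidation and ketone synthesis, 1 passed, Bdh1. It encodes the mitochondrial enzyme that interconverts the ketone bodies. It had 268 and 210.0 CPM at ZT14 and 232 and 199.8 CPM at ZT16, against 338 and 405 CPM at ZT10 and 357 and 356 CPM at ZT12. Between windows the difference was -0.68 ± 0.17 on the log2 scale (adjusted p = 0.0176). The list's median was -0.26, and Cpt1a (-0.46) and Fgf21 (-0.81, log2) did not pass. Of 22 genes of autophagy and lysosome 2 fell, beside 6.29% of all genes. Gabarapl1 encodes an ATG8 protein of the autophagosome. It had 273 and 201 CPM at ZT14 and 161 and 139.8 CPM at ZT16, against 324 and 485 CPM at ZT10 and 389 and 366 CPM at ZT12. In log2 units this was -1.05 ± 0.20 (adjusted p = 0.00361). Ulk1, the kinase that starts autophagy, had 82.5 and 56.3 CPM at ZT14 and 37.3 and 47.5 CPM at ZT16, against 103 and 89 CPM at ZT10 and 94.4 and 65.8 CPM at ZT12. The fitted change was -0.69 ± 0.17 on the log2 scale (adjusted p = 0.0136). The windows overlapped for Ulk1 and not for Gabarapl1 or Bdh1. Of 17 gluconeogenic genes 0 fell and 2 rose (Tat and Slc37a4), and Pck1, the classical fasting-induced enzyme of the path, had a log2 fold change of 0.03. The call of Bdh1 was lost without TRF ZT10 replicate 2, TRF ZT12 replicate 1, TRF ZT12 replicate 2, TRF ZT14 replicate 2 or TRF ZT16 replicate 2 (largest adjusted p = 0.0948), and that of Ulk1 without TRF ZT12 replicate 1, TRF ZT14 replicate 2 or TRF ZT16 replicate 1 (largest adjusted p = 0.081).

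Of the bile acid synthesis and transport genes, 4 of 20 members were lower (Abcg8, Abcg5, Hsd3b7 and Klb) and 1 was higher (Cyp7a1), with a median log2 fold change of -0.29, beside 6.29% lower and 6.28% higher among all genes. Abcg8 encodes the partner of Abcg5 in the export of cholesterol into bile. It had 112 and 84.4 CPM at ZT14 and 48 and 44.8 CPM at ZT16, against 162 and 187 CPM at ZT10 and 167 and 169.8 CPM at ZT12. Abcg5 had 108 and 93.9 CPM at ZT14 and 66 and 58.3 CPM at ZT16, against 112 and 125 CPM at ZT10 and 126 and 139 CPM at ZT12. Hsd3b7 encodes an enzyme of bile acid synthesis. It had 356 and 248 CPM at ZT14 and 218 and 221 CPM at ZT16, against 705 and 759 CPM at ZT10 and 541 and 501 CPM at ZT12. In all 3 the windows did not overlap, and for Abcg8 and Abcg5 the ZT16 libraries were lower than the ZT14 libraries. Log2 changes between the windows were -1.34 ± 0.12 for Abcg8 (adjusted p = 1.51e-05), -0.66 ± 0.13 for Abcg5 (adjusted p = 0.00503) and -1.26 ± 0.19 for Hsd3b7 (adjusted p = 0.000708). Cyp7a1 encodes the rate-limiting enzyme of bile acid synthesis. It had 201 and 304 CPM at ZT14 and 270.0 and 523 CPM at ZT16, against 186 and 178 CPM at ZT10 and 158 and 134 CPM at ZT12. As a log2 ratio this was 0.96 ± 0.24 (adjusted p = 0.0212). That call was lost without TRF ZT10 replicate 1, TRF ZT10 replicate 2, TRF ZT12 replicate 1, TRF ZT12 replicate 2, TRF ZT14 replicate 2 or TRF ZT16 replicate 2 (largest adjusted p = 0.0918). The feeding onset call of Abcg8 held under every alternative run for it. The term for runs left 3 members of the list lower and 0 higher, the libraries run once 2 lower and 0 higher, and the fit without ZT16 1 lower and 0 higher.

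Clec2h, a C-type lectin-like receptor, had the largest fall among genes of at least 5 CPM whose windows did not overlap. It had 3.48 and 2.27 CPM at ZT14 and 2.21 and 0.973 CPM at ZT16, against 18.2 and 40.1 CPM at ZT10 and 25.9 and 42.6 CPM at ZT12. That is a log2 fold change of -3.89 ± 0.49 (adjusted p = 0.00137). Cirbp encodes an RNA-binding protein that cold induces and warmth lowers in mammalian cells. It had 9.6 and 4.61 CPM at ZT14 and 4.15 and 4.71 CPM at ZT16, against 31.9 and 19.2 CPM at ZT10 and 20.5 and 14.4 CPM at ZT12. On the log2 scale the change was -1.91 ± 0.27 (adjusted p = 0.000767). Of the 2 cold-inducible RNA-binding protein genes tested, Cirbp fell and the other, Rbm3, did not pass. Tcp11l2 had 9.79 and 8.1 CPM at ZT14 and 4.94 and 5.61 CPM at ZT16, against 25.4 and 24.7 CPM at ZT10 and 26.8 and 23.6 CPM at ZT12. The fold change was -1.87 ± 0.18 on the log2 scale (adjusted p = 2.44e-05). In Clec2h, Cirbp and Tcp11l2 all 4 libraries of ZT14 and ZT16 lay below all 4 of the fast, as the ranking of largest falls required. Bmf encodes a pro-apoptotic BH3-only protein. It had 9.13 and 3.32 CPM at ZT14 and 4.6 and 6.66 CPM at ZT16, against 36.5 and 19.6 CPM at ZT10 and 35.3 and 26.1 CPM at ZT12. Between windows the difference was -2.31 ± 0.47 on the log2 scale (adjusted p = 0.0131), and that call was lost without TRF ZT14 replicate 2 or TRF ZT16 replicate 1 (largest adjusted p = 0.0613). Syt1 encodes a calcium sensor of vesicle fusion. It had 9.79 and 12.8 CPM at ZT14 and 4.84 and 4.71 CPM at ZT16, against 29.4 and 28.4 CPM at ZT10 and 21 and 18.8 CPM at ZT12. In log2 units this was -1.70 ± 0.16 (adjusted p = 1.71e-05). Syt1 also fell in ALF livers, by 1.30 ± 0.17 on the log2 scale (adjusted p = 0.00128).

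Clock genes changed in both directions. Of 18 core clock and clock output genes 8 rose, among them Per1, Per2, Cry1, Arntl, Clock, Nfil3 and Bhlhe40, and 4 fell (Dbp, Nr1d1, Nr1d2 and Bhlhe41), with a median log2 fold change of 0.08. Per2 encodes a repressor of the loop. It had 98.3 and 105 CPM at ZT14 and 103 and 91.9 CPM at ZT16, against 18.5 and 26 CPM at ZT10 and 27.9 and 38.4 CPM at ZT12. Cry1 encodes its partner. It had 24.3 and 24.1 CPM at ZT14 and 35.7 and 42 CPM at ZT16, against 4.02 and 6.38 CPM at ZT10 and 6.57 and 10.6 CPM at ZT12. Arntl (Bmal1) had 2.73 and 3.16 CPM at ZT14 and 8.43 and 12.4 CPM at ZT16, against 1.94 and 0.638 CPM at ZT10 and 0.657 and 0.773 CPM at ZT12. The 4 Per2 libraries of ZT14 and ZT16 were nearly equal, while Cry1 and Arntl were higher at ZT16 than at ZT14, and all 4 libraries lay above the fast in each gene. Fitted log2 changes were 1.87 ± 0.17 for Per2 (adjusted p = 1.58e-05), 2.18 ± 0.21 for Cry1 (adjusted p = 2.82e-05) and 2.62 ± 0.34 for Arntl (adjusted p = 0.000283). Among those that fell, Dbp, a PAR bZIP output factor, had 66.3 and 37.6 CPM at ZT14 and 28.6 and 12.9 CPM at ZT16, against 95.6 and 118 CPM at ZT10 and 123 and 113 CPM at ZT12, and Nr1d1 (Rev-erb alpha), the repressor of Arntl, had 35.2 and 28.2 CPM at ZT14 and 17.7 and 9.95 CPM at ZT16, against 159.5 and 121 CPM at ZT10 and 51.2 and 27.8 CPM at ZT12. Dbp fell by 1.77 ± 0.30 (adjusted p = 0.00436) and Nr1d1 by 1.83 ± 0.27 on the log2 scale (adjusted p = 0.00158), and the windows of Nr1d1 overlapped at TRF ZT12 replicate 2. The call of Clock was lost without TRF ZT14 replicate 2 or TRF ZT16 replicate 2 (largest adjusted p = 0.0766), and that of Bhlhe41 without TRF ZT10 replicate 1, TRF ZT12 replicate 1, TRF ZT14 replicate 2 or TRF ZT16 replicate 1 (largest adjusted p = 0.091). The count was 6 higher and 3 lower with the term for runs, 4 higher and 2 lower among libraries run once, 4 higher and 1 lower without ZT16 and 5 higher and 4 lower without ZT12.

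In ALF livers the change over the same clock times passed for far fewer genes, 69 higher (0.537%) and 42 lower (0.327%), with 1459 at an unadjusted p under 0.05. The spread between replicates was similar, with a biological coefficient of variation of 18.7% in TRF livers and 20.6% in ALF livers. Library totals were not alike. They reached 44527855, 28463324 and 27496500.5 in TRF ZT10 replicate 2, TRF ZT16 replicate 1 and TRF ZT16 replicate 2. In ALF livers the highest was 14747422.5. With the term for runs 803 genes were called in TRF livers and 106 in ALF livers, but 0 of these ALF libraries were run once. The part of the library totals was not tested, so the counts of called genes are not directly comparable. Of the 806 genes that rose in TRF livers, 83.4% had a positive change in ALF livers as well, as had 49% of all genes, but their median log2 fold change was 0.71 in TRF livers and 0.24 in ALF livers. Of the 808 that fell, 85.3% had a negative change in ALF livers (51% of all genes), with medians of -0.71 in TRF livers and -0.24 in ALF livers. Both sets of genes were picked by their change in TRF livers, which enlarges the TRF medians. The smaller ALF medians therefore do not show that the change was weaker in ALF livers. The lists overlapped in 46 genes that rose, 5.71% of the TRF list and 66.7% of the ALF list, and in 28 that fell, 3.47% and 66.7%. No gene was called in opposite directions. These TRF and ALF comparisons share no library. Leaving out 1 ALF library gave between 33 and 185 called genes: 38 without ALF ZT10 replicate 1, 185 without ALF ZT10 replicate 2, 36 without ALF ZT12 replicate 1, 53 without ALF ZT12 replicate 2, 33 without ALF ZT16 replicate 1 and 45 without ALF ZT16 replicate 2.

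Among genes of at least 5 CPM whose ALF windows did not overlap, Arntl and Cry1 were in the 6 largest rises in ALF livers. Dbp and Nr1d1 were in the 6 largest falls. Arntl in ALF livers had 5.13 and 5.98 CPM at ZT14 and 21.1 and 24.3 CPM at ZT16, against 1.64 and 0.851 CPM at ZT10 and 1.17 and 2.15 CPM at ZT12. The fitted change was 2.98 ± 0.32 on the log2 scale (adjusted p = 0.000335). Nr1d1 in ALF livers had 15.6 and 15.7 CPM at ZT14 and 9.86 and 6.63 CPM at ZT16, against 66.4 and 38.3 CPM at ZT10 and 74.6 and 47.1 CPM at ZT12. As a log2 ratio this was -2.32 ± 0.28 (adjusted p = 0.00188). Both changes had the direction seen in TRF livers, and windows without overlap in ALF livers were a condition of that ranking. Cry1, Dbp and Nr1d2 also passed in both groups, with log2 fold changes in ALF livers of 1.81 ± 0.21, -2.78 ± 0.32 and -1.09 ± 0.13 (adjusted p = 0.000834, 0.00216 and 0.000834). Over the whole clock list 4 rose and 3 fell in ALF livers. By contrast, the median log2 fold change of the heat shock list was 1.53 in TRF livers and 0.41 in ALF livers, where 2 members passed (Hspa1a and Hspb1), and that of the ER list was 0.54 in TRF livers and -0.10 in ALF livers, where 0 of 30 passed. Ribosome biogenesis genes had medians of 0.52 in TRF livers and 0.06 in ALF livers. Fatty acid synthesis genes had medians of 0.36 in TRF livers and 1.01 in ALF livers, and ChREBP targets 0.18 in TRF livers and 0.74 in ALF livers. In ALF livers 0 of the 22 fatty acid synthesis genes passed.

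**Figure D3:**
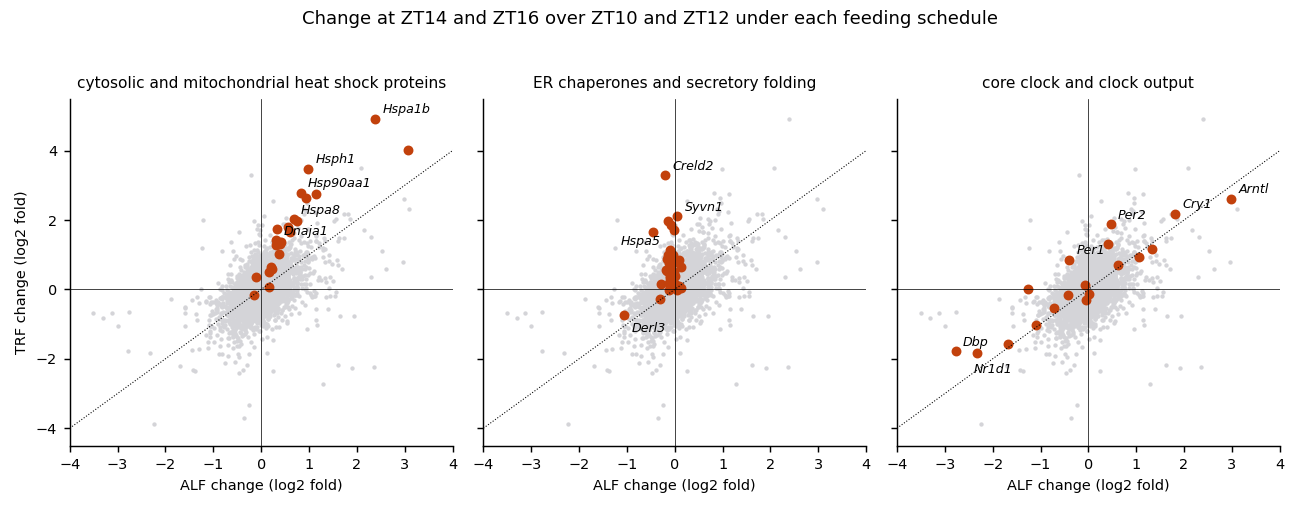
Log2 fold change of ZT14 and ZT16 over ZT10 and ZT12 in TRF livers (y axis) against ALF livers (x axis). Grey points are genes averaging at least 5 CPM that lie within the axes. Members of 3 lists are in orange, and a dotted line marks where both changes are equal. Most heat shock genes lie above the line with positive values in both groups, most ER chaperone genes spread up the TRF axis near 0 on the ALF axis, and clock genes scatter around the line.

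The difference of the change between feeding groups, tested as an interaction, passed for 5 genes higher in TRF livers (0.0389%) and 2 lower (0.0156%), with 1259 at an unadjusted p under 0.05. With DESeq2 size factors 7 were higher and 5 lower. The 5 were Hsph1, Hsp90aa1, Stip1, Per2 and Dnaja1, 4 of them members of the heat shock list. Hsph1 in ALF livers had 61.7 and 110.4 CPM at ZT14 and 97.5 and 81 CPM at ZT16, against 33.4 and 53.4 CPM at ZT10 and 57.2 and 33.1 CPM at ZT12, and the difference of the log2 fold changes was 2.49 ± 0.35 (adjusted p = 0.0255). Per2 in ALF livers had 49 and 80.3 CPM at ZT14 and 54.5 and 42.5 CPM at ZT16, against 31.6 and 41.3 CPM at ZT10 and 43.5 and 46.9 CPM at ZT12, and the difference was 1.41 ± 0.24 (adjusted p = 0.0495). In ALF livers the windows of Hsph1 did not overlap and those of Per2 did, and in both genes all 4 TRF libraries of ZT14 and ZT16 were above every ALF library of those times. At ZT10 and ZT12 the TRF libraries were below every ALF library in 4 of 4 cases for Hsph1 and 3 of 4 for Per2. The differences were 1.97 ± 0.28 for Hsp90aa1 (adjusted p = 0.0206), 1.41 ± 0.20 for Stip1 (adjusted p = 0.0206) and 1.09 ± 0.18 for Dnaja1 (adjusted p = 0.0495). The 2 genes lower in TRF were Frat1 and Tff2. Frat1, a GSK3-binding protein, had 0.753 and 0.243 CPM at ZT14 and 0.968 and 1.61 CPM at ZT16, against 4.32 and 3.39 CPM at ZT10 and 3.69 and 3.2 CPM at ZT12 in TRF livers. In ALF livers Frat1 had 4.1 and 2.99 CPM at ZT14 and 6.83 and 5.75 CPM at ZT16, against 2.68 and 3.66 CPM at ZT10 and 2.62 and 3.55 CPM at ZT12, a difference of -2.79 ± 0.41 (adjusted p = 0.0209). Tff2, a trefoil peptide of mucus-secreting epithelium and a marker of bile duct and gallbladder here, was at 0 CPM in both TRF libraries of ZT14 and at 0.277 and 0.150 CPM at ZT16, against 0.114 to 4.64 CPM at ZT10 and ZT12, and at 3.08 to 4.87 CPM in ALF livers at ZT14 and ZT16 against 0.778 to 1.1 CPM at ZT10 and ZT12. Its fitted fold change depends on the prior count and does not measure a size. The bile duct and gallbladder markers together summed to between 37.52 and 128.8 CPM in TRF livers at ZT14 and ZT16 and between 70.54 and 140.9 CPM at ZT10 and ZT12, with 1 member higher (Sox9) and 1 lower (Tff2), and their part in the Tff2 result was not tested.

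These interaction calls depended on single libraries. With the term for runs 2 genes were called higher and 1 lower, and the part of the library totals was not tested. Leaving out 1 library gave 0 calls without TRF ZT12 replicate 1, TRF ZT12 replicate 2, ALF ZT12 replicate 1 or ALF ZT16 replicate 2, 2 without TRF ZT14 replicate 2, TRF ZT16 replicate 1 or ALF ZT16 replicate 1, 3 without ALF ZT10 replicate 2, 26 without ALF ZT10 replicate 1, 31 without TRF ZT10 replicate 2 and 140 without ALF ZT14 replicate 2. The largest adjusted p over these fits was 0.0819 for Stip1, 0.0819 for Hsp90aa1, 0.134 for Hsph1, 0.159 for Per2 and 0.159 for Dnaja1, while their sign was the same in each. ER chaperone genes did not pass the interaction: the difference was 1.93 ± 0.43 for Hspa5 (adjusted p = 0.127) and 3.5 ± 0.83 for Creld2 (adjusted p = 0.194). In ALF ZT12 replicate 1 Creld2 stood at 78.5 CPM, against 17.9 to 23.5 CPM in the other ALF libraries of ZT10 and ZT12.

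Set against the same 4 fasted libraries, ZT14 gave 298 genes higher (2.32%) and 137 lower (1.07%), and ZT16 gave 615 higher (4.79%) and 679 lower (5.29%). These 2 comparisons share their fasted libraries, so their values are given side by side and their lists were not overlapped. Heat shock genes passed in similar numbers, 17 of 22 at ZT16 and 16 of 22 at ZT14. ER chaperone genes passed in 11 of 30 at ZT16 and 4 of 30 at ZT14, ribosome biogenesis genes in 6 of 36 at ZT16 and 13 of 36 at ZT14. Hspa1b had a log2 fold change of 3.59 ± 0.55 at ZT16 and 6.24 ± 0.55 at ZT14. Nop58 had 0.57 ± 0.21 at ZT16 (adjusted p = 0.103) and 1.45 ± 0.21 at ZT14 (adjusted p = 0.00138). The ZT14 count of 435 was 44 without TRF ZT14 replicate 2, 202 without TRF ZT12 replicate 1, 236 without TRF ZT12 replicate 2, 242 without TRF ZT10 replicate 1 and 256 without TRF ZT14 replicate 1. The ZT16 count of 1294 was 383 without TRF ZT16 replicate 1, 525 without TRF ZT16 replicate 2 and 748 without TRF ZT12 replicate 2.

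**Figure D4:**
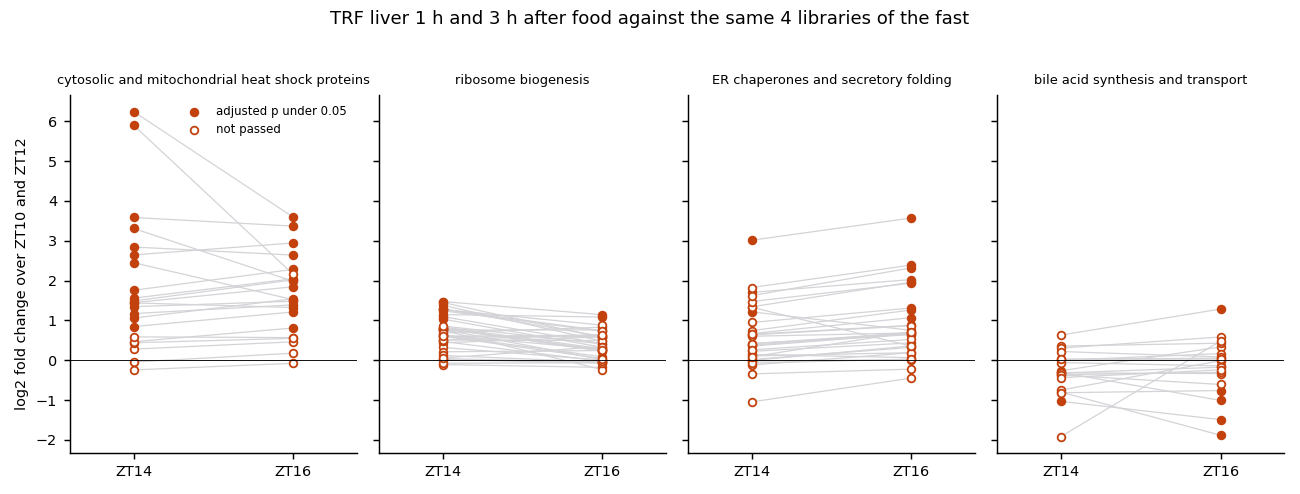
Log2 fold change of the members of 4 lists in TRF livers at ZT14 (1 h after food) and ZT16 (3 h after food), each against the same 4 libraries of ZT10 and ZT12 (y axis), with a line for each gene and filled points at an adjusted p under 0.05. Filled points number 16 and 17 in the heat shock panel, 13 and 6 in the ribosome biogenesis panel and 4 and 11 in the ER chaperone panel, at ZT14 and ZT16 in turn.

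Compared directly, ZT16 and ZT14 differed in few genes: 2 were higher at ZT16 (0.0156%), Elovl3 and Pde9a, and 3 were lower (0.0234%), Gpcpd1, Pfkfb3 and Abcg8, with 1053 at an unadjusted p under 0.05. Elovl3, an elongase of very long chain fatty acids, had 357 and 365 CPM at ZT16 and 99.0 and 56.4 CPM at ZT14, against 54.9 to 127 CPM at ZT10 and ZT12. ZT16 lay above ZT14 by 2.22 ± 0.30 on the log2 scale (adjusted p = 0.0128). Elovl3 also rose over the same clock times in ALF livers, where it had 219.5 and 226 CPM at ZT14 and 536 and 471 CPM at ZT16, against 61.8 and 50.9 CPM at ZT10 and 75.8 and 43.7 CPM at ZT12, a log2 fold change of 2.53 ± 0.21 (adjusted p = 6.46e-05). Gpcpd1, a glycerophosphodiesterase, had 45.9 and 44.0 CPM at ZT16 and 242 and 207 CPM at ZT14, a difference of -2.32 ± 0.26 (adjusted p = 0.00174). Pfkfb3, an enzyme that makes the glycolytic activator fructose 2,6-bisphosphate, had 19.1 and 23.5 CPM at ZT16 and 61.7 and 67.7 CPM at ZT14, a difference of -1.60 ± 0.24 (adjusted p = 0.0181), and its ZT16 level lay within that of the fast. Socs2, the feedback inhibitor of growth hormone signalling, had 1.18 and 0.973 CPM at ZT16 and 11.1 and 11.9 CPM at ZT14, against 10.1 to 24.6 CPM in the fast, and fell at ZT16 by 3.89 ± 0.60 on the log2 scale (adjusted p = 0.00262). The call of Elovl3 was lost without TRF ZT14 replicate 2 (adjusted p = 0.0888) and that of Gpcpd1 under no alternative run, while that of Pfkfb3 was lost without any 1 of the 4 libraries of ZT14 and ZT16 (largest adjusted p = 0.183), that of Pde9a without TRF ZT14 replicate 1, TRF ZT14 replicate 2 or TRF ZT16 replicate 2 (largest adjusted p = 0.174) and that of Abcg8 without 7 of the 16 libraries in turn (largest adjusted p = 0.321). The count of 5 was 12 without TRF ZT10 replicate 1, 14 without TRF ZT10 replicate 2, 18 without either ALF library of ZT10, 11 without ALF ZT14 replicate 1, 12 without ALF ZT14 replicate 2 and 9 without either ALF library of ZT16.

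Within the fast, ZT12 and ZT10 differed in 0 genes by edgeR, either higher or lower (0% each), with 1049 at an unadjusted p under 0.05, and DESeq2 called 18. Without TRF ZT10 replicate 1 edgeR called 8 genes, without TRF ZT12 replicate 1 it called 4, without either ALF library of ZT12 it called 3, and without either TRF library of ZT16 or either ALF library of ZT10 it called 1. Over the whole day the TRF mean of Hsph1 was highest at ZT14 and lowest at ZT8, and that of Nop58 was highest at ZT14 and lowest at ZT12, the 2 clock times on either side of feeding. Hspa5 was highest at ZT18 and lowest at ZT8 in TRF livers, and Per2 was highest at ZT14 and lowest at ZT6. In ALF livers the means of Hsph1 and Hspa5 were highest at ZT0, where the 2 libraries stood far apart, and that of Per2 at ZT14. Abcg8 was highest at ZT10 and lowest at ZT20 in TRF livers, and highest at ZT6 and lowest at ZT0 in ALF livers.

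**Figure D5:**
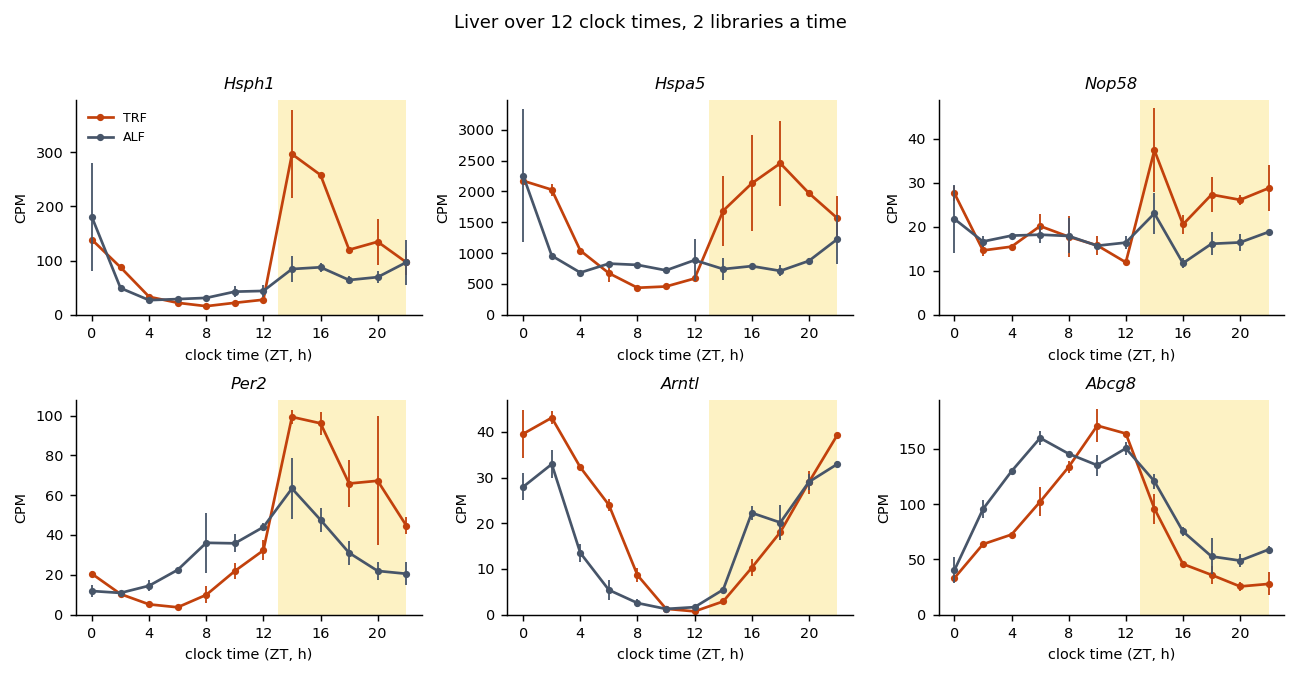
Mean CPM (y axis) over 12 clock times (x axis, ZT in hours) in TRF livers (orange) and ALF livers (blue-grey), with bars between the 2 libraries of a time and the feeding window of TRF mice shaded; CPM here are scaled over all 48 liver libraries. Hsph1, Nop58 and Per2 step up in TRF livers between ZT12 and ZT14, Hspa5 and Arntl climb on to later times, and Abcg8 falls.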

How the data were processed

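The deposited table holds estimated counts per gene from stranded mRNA sequencing of liver, made by the authors and not normalized. The submitters' processing notes name CASAVA 1.8, FastQC 0.11.8, STAR 2.5.3a and HOMER 4.10 and the mouse build mm10 (GRCm38), and the counting settings are not given in the sources used here. Of the values in the 16 libraries 26.6% were not whole, and all were rounded to whole numbers. Of 24537 lines, 4 with duplicated names were left out, and 26 carried date-like names. Groups came from the titles; a time label that counts liver hours into the following day was not used.

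Differential expression was tested with edgeR 4.0.16 (quasi-likelihood test, robust, TMM scaling; limma 3.58.1, R 4.3.3) over the 16 libraries in 8 cells of feeding by clock time, after the filter on low counts, with Benjamini-Hochberg adjustment over 12839 genes and a threshold of 0.05. Each contrast set the mean of ZT14 and ZT16 against the mean of ZT10 and ZT12, and the feeding difference was an interaction. The steps were tested on simulated data. Alternatives included DESeq2 1.42.0, other scaling, no filter, each library and each clock time left out, the replicate block and a term for sequencing runs. The libraries and lists were chosen with earlier results of these data known. Named genes were the 12 largest rises and the 12 largest falls in TRF livers among genes averaging 5 CPM or more whose windows did not overlap, the 6 each way in ALF livers and for the difference, the 5 each way between ZT16 and ZT14, up to 5 members of each list by smallest p, and all clock genes; list members named as not passing, and Hsp90ab1, were chosen after their values were seen. Sequences came from RefSeq (GRCm38.p6), and Hsp90aa1 and Per2 had no window in the table used. Replicate numbers did not pair libraries: deviations of 28 same-numbered pairs correlated between -0.202 and 0.27. Some genes are not reported here, although they are counted in the lists.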

Additional observations from a re-analysis of the deposited data

Results flagged for a closer look

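In 10 of 238 groups of 4 libraries tested (7 of 182 gene groups and 3 of 56 marker sums), 1 library stood apart by Dixon's test at the 95% level, where chance gives about 1 in 20. Among libraries of ZT14 and ZT16 in TRF livers, Hsp90ab1 was lowest at 1657 CPM in ZT14 replicate 1 (nearest 2110 CPM), Tsc22d3 was highest at 247.5 CPM in ZT14 replicate 1 (nearest 215.4 CPM), Cirbp was highest at 9.6 CPM in ZT14 replicate 1 (nearest 4.713 CPM), and erythroid markers summed to 659.6 CPM in ZT14 replicate 2 (nearest 378.6 CPM). Among libraries of ZT10 and ZT12 in TRF livers, Hsp90b1, the HSP90 of the ER, reached 799.3 CPM in ZT12 replicate 1 (nearest 681.3 CPM), Arntl 1.937 CPM in ZT10 replicate 1 (nearest 0.773 CPM), and Stard4, a sterol carrier, 228.2 CPM in ZT10 replicate 2 (nearest 154.4 CPM). Pancreatic acinar markers summed to 580.3 CPM in ZT12 replicate 2 (nearest 62.34 CPM). In ALF livers, neutrophil markers summed to 4.138 CPM in ZT14 replicate 2 (nearest 2.871 CPM), and Nfil3, a bZIP repressor of the clock output, reached 24.96 CPM in ZT12 replicate 2 (nearest 13.95 CPM).

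The change at feeding onset differed between TRF and ALF livers by the interaction test for 7 genes. The log2 difference was 2.49 for Hsph1, 1.97 for Hsp90aa1, 1.41 for Stip1, 1.41 for Per2, 1.09 for Dnaja1, -2.79 for Frat1 and -7.32 for Tff2, the last set by libraries at or near 0.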

How the results depend on the processing

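Of the 76 genes run through the alternatives for TRF feeding onset none changed direction, and of their 2204 values 1975 kept their side of the threshold, 212 lost it and 17 gained it. Counts of called genes moved more. For TRF feeding onset (1614) the count was 803 with the term for runs, 971 without ZT10, 607 without ZT12, 278 without ZT16, 161 among libraries run once (chosen after seeing the data) and 409 at an absolute log2 fold change of at least 1. For ALF livers (111) it was 632 without the filter, 309 with DESeq2, 15 with 4 groups of 4 libraries, 334 without ZT10, 18 without ZT12, 12 without ZT16 and 51 at the fold of 1. For the difference (7) it was 12 with DESeq2 size factors (7 higher and 5 lower), 506 without the filter, 158 with DESeq2, 4 with all 48 libraries, 3 with the term for runs, 3 with 4 groups, 85 without ZT10, 0 without ZT12, 153 without ZT14 and 0 without ZT16. For ZT14 (435) it was 1098 without the filter, 700 with DESeq2 and 149 with the term for runs, and for ZT16 (1294) 1984 without the filter and 766 with that term. For ZT16 against ZT14 (5) it was 339 without the filter, 107 with DESeq2 and 24 among the 8 TRF libraries, and for ZT12 against ZT10 (0) 193, 18 and 3 under the same settings. Leaving out 1 library gave 693 to 1788 for TRF onset, 33 to 185 for ALF, 0 to 140 for the difference, 44 to 544 for ZT14, 383 to 1517 for ZT16, 4 to 18 for ZT16 against ZT14 and 0 to 8 for ZT12 against ZT10. With the replicate block the counts were 1684 for TRF onset, 106 for ALF, 10 for the difference, 482 for ZT14, 1382 for ZT16, 11 for ZT16 against ZT14 and 1 for ZT12 against ZT10; the numbers do not pair the libraries. A clock time with 1 library left is assumed to vary like the others. The cause of these moves was not tested. No detection limit was tested.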

Other observations

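Several lists not described above held called members in TRF livers at ZT14 and ZT16 against ZT10 and ZT12. Their counts stand beside 6.28% higher and 6.29% lower among all genes. Of 21 immediate early genes 5 rose (Jun, Jund, Ier5, Dusp1 and Dusp6) and 1 fell (Gadd45a), with a median log2 fold change of 0.25 in TRF livers and 0.20 in ALF livers. Dusp6, a phosphatase that acts on ERK, rose by 0.77 ± 0.14 in TRF livers (log2, adjusted p = 0.00298) and by 0.74 in ALF livers (adjusted p = 0.0224). Of 13 CREB and CRTC targets 4 rose (Crem, Per1, Tat and Dusp1) and 2 fell (Pde4d and Irs2). Per1, Tat and Dusp1 were also counted among the glucocorticoid-responsive genes. Pde4d, a phosphodiesterase that degrades cyclic AMP, had a log2 fold change of -1.87 ± 0.39 in TRF livers (adjusted p = 0.00742) and 0.09 in ALF livers (adjusted p = 0.959), a difference that did not pass the interaction test. Of 19 xenobiotic metabolism genes Sult1e1 rose and Cyp3a25 fell. The acute phase list had 0 of 18 members called in either group by edgeR, with a median log2 fold change of -0.26 in TRF livers and -0.74 in ALF livers. Markers of Kupffer cells (0 of 12), stellate cells (0 of 10) and proliferating cells (0 of 9) did not pass in TRF livers, whereas 1 of 6 erythroid markers was lower (Hbb-bt) and 3 of 10 sinusoidal endothelium markers were higher (Stab1, Lyve1 and Oit3).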
